A study of Mus musculus with 17 samples.

Results

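The genes described here encode the collagens, the laminins and the proteins that tie both together in a basement membrane. They were chosen by name alone: every symbol made of Col, a number, a and a number, every symbol made of Lam, one of a, b or c, and a number, and the 3 genes Nid1, Nid2 and Hspg2. The rule found 58 genes among the 25198 rows of the count table, and 33 of them had enough counts to be tested. The samples were antral ovarian follicles of CD1 mice aged 16 days, grown for 8 days in eIVFG, a culture system in which follicles grow outside the ovary. Of the 17 RNA-seq libraries, 11 were labelled Control and 6 Tyrphostin-AG1478, an inhibitor of the kinase of the epidermal growth factor receptor given at 10 µM for 4 h with hCG, a hormone that starts ovulation, and DMSO as solvent. Batch 1 held 6 Control and 3 Tyrphostin libraries and batch 2 held 5 Control and 3 Tyrphostin libraries. The library names put the Control libraries in 5 numbered sets, Control 1 to 3 and 4 to 6 in batch 1 and Control 7 and 8, Control 9, and Control 10 and 11 in batch 2. Each sample pooled 3 follicles. All 17 samples carry one treatment text, so the labels do not tell whether hCG and DMSO were also given to Control follicles, nor whether libraries, those of one set among them, came from separate animals or cultures. The p-values then measure the spread between these libraries, which may be technical.

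A basement membrane is a thin sheet on which epithelia rest. Laminins, each a trimer of an alpha, a beta and a gamma chain, and type IV collagen each form a network in it, and nidogens and perlecan (Hspg2) link the networks. In the ovary such a sheet separates the granulosa cells of a follicle from the theca layer outside, and granulosa cells make part of it. Fibrillar collagens such as types I and III are made mainly by theca, stromal and other connective tissue cells, and ovulation involves remodelling of both kinds of matrix.

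Library totals ran from 1820545 counts (Control 6) to 8291024 counts (Control 8), and the members together took from 0.0876% (Tyrphostin 2) to 0.518% (Tyrphostin 5) of a library. Levels are given in CPM, counts relative to the library total after scaling by edgeR's TMM factors, and 3 counts, taken as the floor, equal 0.336 CPM in Control 8 and 1.64 CPM in Control 6. Granulosa markers dominated the marker lists: 8 of them summed to between 78228 and 114466 CPM in every library, mostly Inha, Inhba and Gja1, while the granulosa markers Foxl2 and Amh stayed at or below 4.66 and 1.08 CPM. Of the 6 granulosa markers tested 3 were higher in Tyrphostin libraries, among them Cyp19a1 with a log2 fold change of 2.35 ± 0.22 (adjusted p = 2.84e-07, edgeR). A list of 8 theca and stroma genes that holds no member summed to 74.3 to 216 CPM in the 9 libraries of batch 1 and to 136 to 818 CPM in the 8 libraries of batch 2. It was highest in Tyrphostin 5 (818 CPM), Control 7 (783 CPM) and Control 8 (756 CPM). Its leading genes were Cyp17a1 and Dcn, and Tcf21 and Gli1 stayed at or below 1.84 and 0.667 CPM. The summed markers ran from 8.54 to 89.8 CPM for endothelium, 8.97 to 68.2 CPM for smooth muscle, 0.43 to 11.0 CPM for ovarian surface epithelium and 18.3 to 209 CPM for the oocyte. Low counts left 2 of 6, 2 of 6, 0 of 5 and 7 of 8 genes of these lists to be tested for treatment, and 0 passed. The last 2 sums were highest in Tyrphostin 6, against at most 2.97 and 84.8 CPM in Control libraries. In these bulk libraries fewer cells of a type and less RNA per cell cannot be told apart.

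The library Tyrphostin 5 stood apart for many members. It held the highest level among all 17 libraries for Col1a1, Col1a2, Col3a1, Col4a1, Col4a2, Col6a1, Col6a2 and Col15a1. Each of the 6 immune markers was also at its highest there, with C1qb at 16.7 CPM and their sum at 57.9 CPM against 11.6 to 36.1 CPM elsewhere. Some of the results that this library moves are given below with and without it. Over all libraries, leaving it out moved the log2 fold change from -0.43 to -1.004 for Col3a1 and from -0.72 to -1.44 for Col15a1. It moved that of Col4a1 from -0.47 to -0.86 and that of Col4a2 from -0.35 to -0.73. The median of the members tested moved from -0.36 to -0.57.

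Compared per kilobase of the principal transcript, 3 members led, and their order differed between groups and batches. Col3a1, which encodes type III collagen, a fibrillar collagen of soft connective tissue, had a mean of 86.5 CPM per kb over the 17 libraries. The type IV chain Col4a1 followed at 44.3, the laminin beta chains Lamb2 and Lamb1 at 36.0 and 21.4, and then Col18a1 at 16.2, Col1a2 at 14.9, Col6a1 at 14.4 and Col4a2 at 13.6 CPM per kb. These 8 genes made up 80.9% of the summed CPM per kb of the 58 members. The lead of Col3a1 rests on batch 2, where its mean was 130 CPM per kb in Control libraries against 48.3 in batch 1. By the median of the 11 Control libraries Col4a1 (52.6 CPM per kb) was above Col3a1 (49.6), and in the 3 Tyrphostin libraries of batch 1 the means of Lamb2 (36.6) and Col4a1 (22.7) were above that of Col3a1 (21.1). Col3a1 was the highest member per kb in 10 of the 17 libraries, Lamb2 in 4, Col4a1 in 2 and Lamb1 in 1. Further down the order is also loose, since the Control libraries of Col18a1, Col1a2, Col6a1 and Col4a2 spanned overlapping ranges. Among the laminin alpha chains Lama1 (3.57 CPM per kb) and Lama4 (2.501) were above Lama2 (0.835) and Lama5 (0.371). The 25 members not tested included the type II, VII, VIII, X and XVII collagens, the type IV chains Col4a3 and Col4a4, and the laminin chains Lama3 and Lamb3, and none of them exceeded 18 counts in any library.

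**Figure D1:**
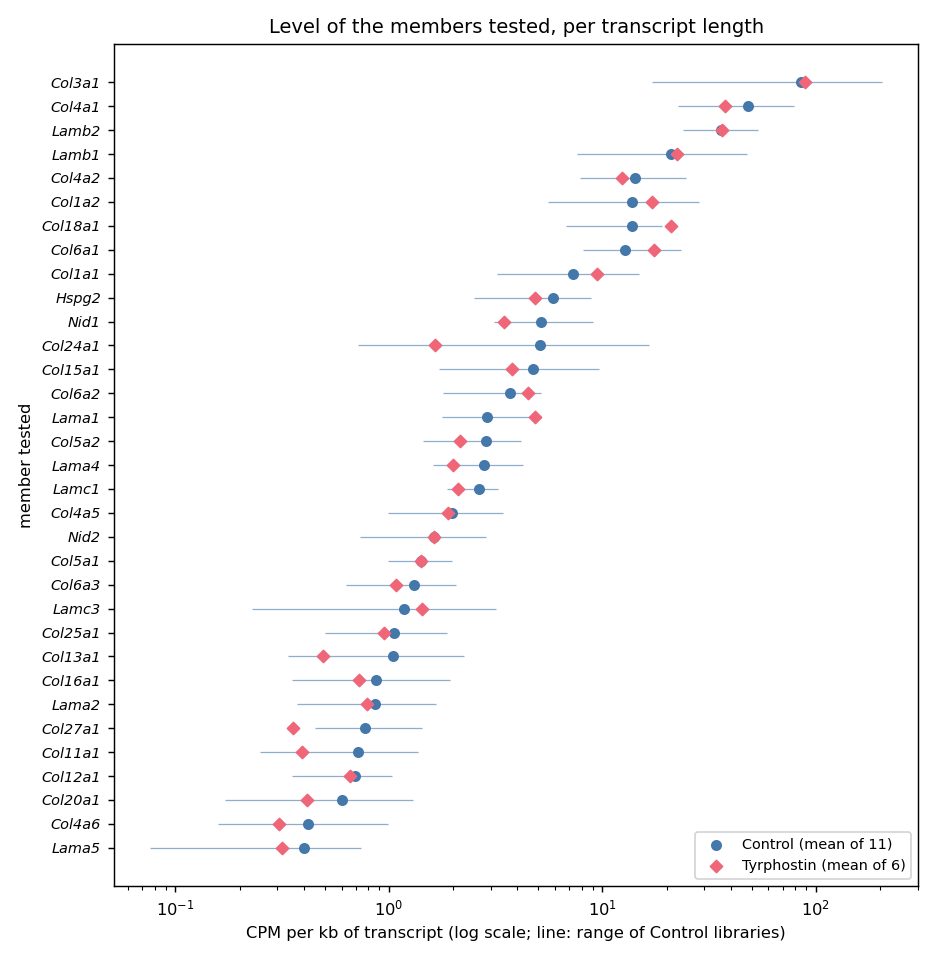
Mean level of each of the 33 members tested in CPM per kilobase of transcript (log axis), for 11 Control libraries (circles) and 6 Tyrphostin libraries (diamonds). Lines span the lowest and highest Control library, and genes are ordered by the Control mean. The Control range of Col3a1, the widest of the upper 3, spans those of Col4a1 and Lamb2.

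In the fit of all 17 libraries with a batch term, 3 of the 33 members passed the test: the fibrillar collagens Col24a1 and Col27a1 fell in Tyrphostin libraries and the multiplexin Col18a1 rose. That share of called members stood beside 10.6% of the 9603 genes tested (4.35% higher, 6.25% lower; edgeR quasi-likelihood test, adjusted p under 0.05), so the members were called about as often as other genes. Of the 33 members 26 had a negative log2 fold change, with a median of -0.36 beside a median of 5.42e-05 over all genes tested. At an unadjusted p under 0.05 there were 8 members (24.2%) and 23.7% of all genes. No member had all 6 Tyrphostin libraries on one side of all 11 Control libraries, which 1.51% of all genes had (0.51% higher, 1% lower). With scaling by total counts, which moved the median of all genes to 0.15, the 3 calls were 2 higher (Col18a1 and Lama1) and 1 lower (Col24a1). The number of calls depended on single libraries. Without Tyrphostin 1 or Tyrphostin 3 there was 1 call, Col27a1, and without Tyrphostin 6 the 1 call was Col24a1. Leaving out Tyrphostin 5 gave 5 calls, all lower (Nid1, Lama2, Col24a1, Col27a1 and Col13a1). The shares of all genes called in these fits are not given, so the shifts in number are not read as a result about the members.

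Col24a1, a minor fibrillar collagen best known from bone, lies at chr3:145292472-145552011 on the plus strand (GRCm38, GENCODE M21). It ran from 5.12 to 118 CPM in Control libraries (median 28.8) and from 5.93 to 20.4 CPM in Tyrphostin libraries (median 11.6). The groups overlapped, with the Control libraries of batch 2 at the low end. Its log2 fold change was -1.19 ± 0.31 (SE, adjusted p = 0.0151 by edgeR's quasi-likelihood test), or 0.437 of the Control level. In batch 1 the 6 Control libraries lay between 28.8 and 118 CPM (median 54.7) and Tyrphostin 1, 2 and 3 at 14.6, 20.4 and 15.4 CPM, so all 3 were below every Control library. In batch 2 the Control libraries were at 14.4, 11.9, 9.56, 8.05 and 5.12 CPM and Tyrphostin 4, 5 and 6 at 8.51, 5.93 and 5.97 CPM, within the Control range. The changes were -1.77 ± 0.38 in batch 1 (adjusted p = 0.0083) and -0.51 ± 0.35 in batch 2 (adjusted p = 0.682), with a difference between them of 1.27 ± 0.53 that did not pass (adjusted p = 1.00). The call over all libraries was lost without Tyrphostin 1 (adjusted p = 0.0587) or Tyrphostin 3 (0.0522), and without the batch term (0.135).

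Col27a1, another minor fibrillar collagen, of cartilage, lies at chr4:63214004-63334991 on the plus strand and was low throughout. Its Control libraries ran from 3.41 to 10.9 CPM (median 5.64) and its Tyrphostin libraries from 1.49 to 4.68 CPM (median 2.57). Of the 6 Tyrphostin libraries 5 lay below every Control library, and Tyrphostin 3 lay inside the Control range. The log2 fold change was -1.10 ± 0.30 (adjusted p = 0.0191, edgeR). It was -0.71 ± 0.39 in batch 1 and -1.58 ± 0.45 in batch 2, where Tyrphostin 4, 5 and 6 (2.33, 1.89 and 1.49 CPM) were below Control 7 to 11 (3.41, 5.38, 10.9, 6.13 and 4.06 CPM). Neither value within a batch passed (adjusted p = 0.315 and 0.156). The call over all libraries was lost without Tyrphostin 6 (adjusted p = 0.0606) and with scaling by total counts (0.0511).

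Col18a1, which encodes a proteoglycan collagen of basement membranes whose end fragment is endostatin, ran from 32.5 to 91.0 CPM in Control libraries (median 65.1) and from 52.2 to 136 CPM in Tyrphostin libraries (median 106). Of the 6 Tyrphostin libraries 4 were above every Control library. The log2 fold change was 0.59 ± 0.19 (adjusted p = 0.0454), and it was 0.58 ± 0.27 in batch 1 and 0.61 ± 0.25 in batch 2 (adjusted p = 0.227 and 0.378). In batch 2 Tyrphostin 4, 5 and 6 (100.01, 112 and 136 CPM) were above all of Control 7 to 11 (89.0, 91.0, 69.5, 83.2 and 48.2 CPM). The gene lies at chr10:77052178-77166548 on the minus strand. Its call lies close to the threshold: omitting any of Control 2, 3, 4, 5, 9 and 11 or Tyrphostin 1, 3, 5 and 6 ended it, with adjusted p of up to 0.184, as did summing Control libraries by set (0.0829) and dropping the batch term (0.0954).

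The promoters of these 3 called members are shown because the genes changed with treatment over all libraries. They come from RefSeq, GRCm38.p6, in windows of 300 bases from 250 before to 50 after a start, and 42 of the 58 members had a window. Capitals mark matches on either strand to 5 motifs that were searched for. The GC box was spelled GGGCGG. The CCAAT box and the TATA box, spelled TATAAA, were the next pair. The cyclic AMP response element (CRE) was spelled TGACGTCA. The AP-1 motif was spelled TGANTCA, which the CRE letters do not contain. Col24a1 is given at chr3:145292222-145292491 on the plus strand, bases -250 to 20 around the start, and its capitals are the CRE letters. Col27a1 is given at chr4:63215162-63215411 on the plus strand with a GC box, inside the GENCODE gene and outside its exons. Col18a1, at the second of 2 starts, is given at chr10:77166531-77166780 on the minus strand with 1 inverted CCAAT and 3 inverted GC boxes, and 18 of its bases lie in GENCODE exons.
Col24a1: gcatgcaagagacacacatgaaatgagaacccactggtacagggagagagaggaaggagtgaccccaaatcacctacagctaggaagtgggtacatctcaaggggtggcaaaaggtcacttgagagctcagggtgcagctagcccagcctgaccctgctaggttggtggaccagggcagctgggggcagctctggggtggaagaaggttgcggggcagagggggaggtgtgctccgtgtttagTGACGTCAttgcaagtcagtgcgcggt
Col27a1: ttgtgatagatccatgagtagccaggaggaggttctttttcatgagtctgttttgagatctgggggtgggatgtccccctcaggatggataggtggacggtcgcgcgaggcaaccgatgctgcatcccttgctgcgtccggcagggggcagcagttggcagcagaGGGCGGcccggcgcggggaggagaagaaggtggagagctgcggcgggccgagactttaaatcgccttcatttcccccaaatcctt
Col18a1: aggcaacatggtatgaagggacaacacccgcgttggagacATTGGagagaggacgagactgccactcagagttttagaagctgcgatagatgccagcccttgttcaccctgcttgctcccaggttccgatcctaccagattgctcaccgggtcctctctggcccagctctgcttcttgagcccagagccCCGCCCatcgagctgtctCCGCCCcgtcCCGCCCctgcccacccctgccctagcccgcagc
Among the 32851 windows of the table, 1.79% hold the CRE letters, 7.81% the AP-1 letters, 13.6% TATAAA, 35.7% a GC box and 37.4% CCAAT. Of the 42 members with a window, 1 held the CRE letters (Col24a1), 1 the AP-1 letters (Col6a1), 5 TATAAA, 27 a GC box and 15 CCAAT. A member counts if any of its windows matches, and some have several, so these counts are not directly comparable with the shares of windows. A match describes the letters of the window only.

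**Figure D2:**
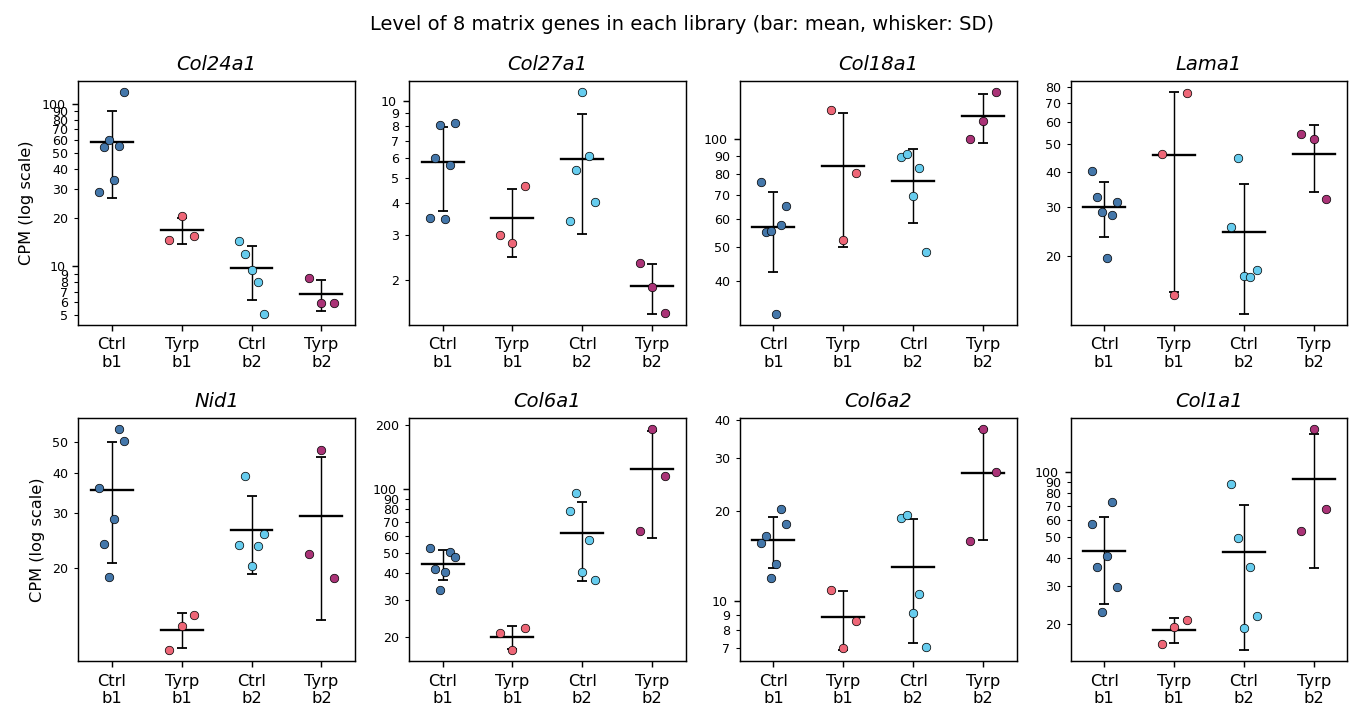
Level of 8 members in each library in CPM (log axes), for Control (Ctrl) and Tyrphostin (Tyrp) libraries of batch 1 (b1) and batch 2 (b2). Bars are means and whiskers SD, and the 3 Tyrphostin libraries of batch 1 lie below all 6 Control libraries for Col24a1, Nid1, Col6a1, Col6a2 and Col1a1.

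Within batch 1 the members were mostly lower in Tyrphostin libraries, and the size differed between classes. The median log2 fold change was -1.06 over 8 fibrillar collagens, all negative, and -1.25 over 2 transmembrane collagens. It was -0.13 over the 3 linkers, which ran from -1.45 (Nid1) to 0.12 (Nid2). The other class medians lay between -0.85 (type IV chains) and -0.20 (laminin beta chains). No test between classes was run. Of 32 members tested 7 fell and 0 rose, beside 6.73% of the 9423 genes tested called in either direction, 2.94% higher and 3.79% lower. In order of adjusted p the 7 were Col6a1, Col24a1, Nid1, Col15a1, Col1a1, Col1a2 and Col4a2. A negative log2 fold change was found for 29 of the 32, with a median of -0.79 beside 0.02 over all genes, and 18 of the 32 (56.3%) had an unadjusted p under 0.05 beside 21.2% of all genes. All 3 Tyrphostin libraries were below all 6 Control libraries for 8 members (Col6a1, Col1a1, Nid1, Col6a2, Lamc1, Col24a1, Col4a2 and Col13a1), which 6.46% of all genes had in that direction, and above them for 0 members, against 5.04% of all genes. The theca and stroma list summed to 78.1 to 176 CPM in the Control libraries and to 205, 216 and 74.3 CPM in Tyrphostin 1, 2 and 3. Most of the sum in Tyrphostin 1 and in Tyrphostin 2 was Cyp17a1, at 170 CPM in each. In these 3 libraries Dcn was at 18.5, 28.3 and 11.3 CPM, against 19.8 to 43.9 CPM in Control libraries. Lum was at 2.15, 5.59 and 1.17 CPM, against 2.74 to 12.8 CPM. Of the 6 tested genes of the list 0 passed, and 4 had negative and 2 positive changes, with a median of -0.60. The part of theca or stroma RNA in the lower member levels was not tested. The number of calls was 4 without Control 1, Control 5 or Tyrphostin 2, and 3 without Tyrphostin 1 (Col6a1, Nid1 and Col24a1). It was 4 with scaling by total counts, 4 with Control libraries summed by set (without Col6a1, Col1a2 and Col4a2) and 12 with DESeq2. The shares of all genes called in these alternative fits are not given, so these counts are not read as a result about the members.

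Within batch 2 the members leaned the other way and none passed. Of 33 members 0 passed the edgeR test, beside 0.621% of 9830 genes, 6 had an unadjusted p under 0.05 (18.2%, beside 10.7% of all genes), and DESeq2 called 1 (Col27a1, lower). The log2 fold change was positive for 22 of the 33, with a median of 0.11, and so it was for all 6 tested genes of the theca and stroma list, with a median of 0.31 and 0 calls. How far the members' directions in batch 2 rest on Tyrphostin 5 was not tested. For Col3a1, Col4a1 and Col4a2, all counted as positive, only Tyrphostin 5 lay above the Control mean of batch 2 (721, 336 and 103 CPM). Without it Col6a1, Col6a2 and Col1a1 stayed positive, at 0.53, 0.696 and 0.48. Col18a1 lay above all Control libraries in the 3 Tyrphostin libraries and Col27a1 below them, a separation that 9.1% of all genes had (4.21% above, 4.89% below). Of the 32 members tested in both batches, 19 were lower in batch 1 and higher in batch 2, 10 were lower in both, 2 were higher in both (Col18a1 and Lama1) and 1, Nid2, was higher in batch 1 and lower in batch 2.

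**Figure D3:**
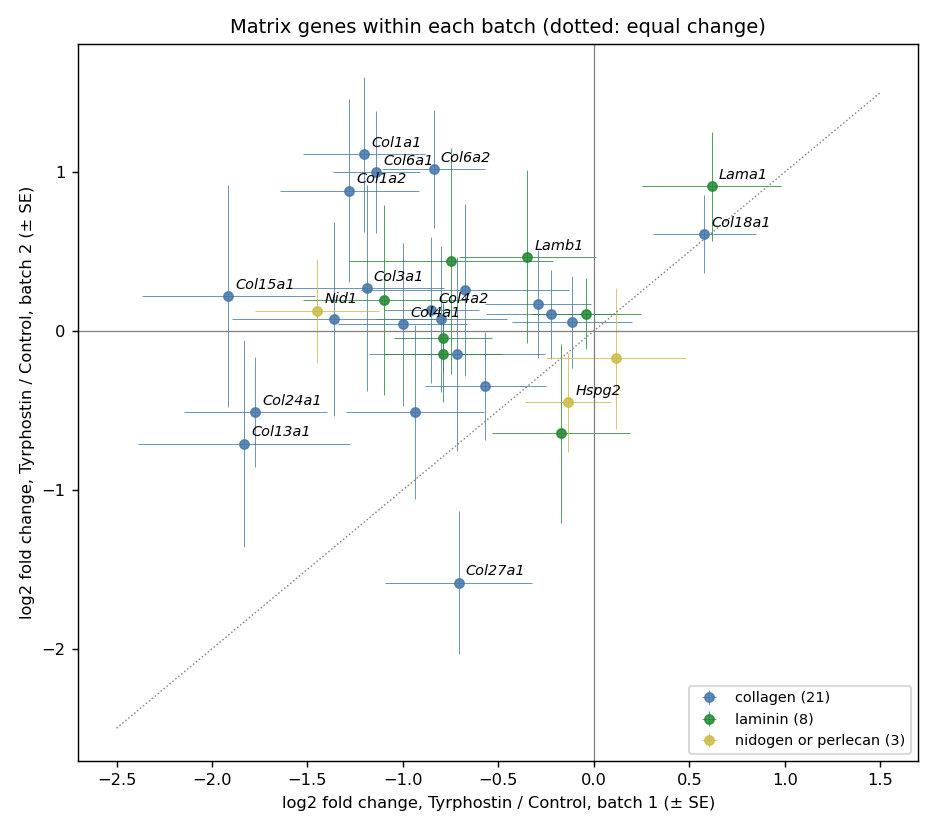
Log2 fold change of Tyrphostin over Control within batch 1 (x axis) and within batch 2 (y axis) for the 32 members tested in both, with SE bars, coloured by family. Most collagens lie left of 0 and 19 of the 32 members lie in the upper left, while Col18a1 and Lama1 are the 2 in the upper right.

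The type IV collagen chains Col4a1 and Col4a2, which form the heterotrimer of most basement membranes, were lower in Tyrphostin libraries of batch 1, where the second passed the test. Col4a1 ran from 149 to 521 CPM in Control libraries (median 348) and from 61.1 to 619 CPM in Tyrphostin libraries (median 201). In batch 1 Tyrphostin 1, 2 and 3 were at 160, 61.1 and 229 CPM against 197 to 372 CPM (median 319) in Control libraries, so Tyrphostin 3 overlapped them. Its log2 fold change was -0.47 ± 0.36 over all libraries, with a 95% interval from -1.18 to 0.23 (adjusted p = 0.4663), and -1.001 ± 0.34 in batch 1 (adjusted p = 0.0877). For Col4a2 the 3 libraries of batch 1 were at 44.8, 31.5 and 60.9 CPM, all below the Control libraries (65.2 to 102 CPM, median 83.6), and this chain passed in batch 1 at -0.85 ± 0.25 (adjusted p = 0.0456). In batch 2 Control 7 to 11 held 104, 159, 62.1, 138 and 50.8 CPM of Col4a2 and Tyrphostin 4, 5 and 6 held 85.9, 201 and 52.8 CPM, spread over the same range apart from Tyrphostin 5. The batch 2 change was 0.13 ± 0.46 (adjusted p = 0.952). The call in batch 1 held only when Control 2, Control 3, Tyrphostin 3 or no library was omitted, and its adjusted p reached 0.199 otherwise. It also ended with Control libraries summed by set (0.248), with scaling by total counts (0.123) and with no filter on low counts (0.0608). Col4a5, a chain of a second type IV network, lay between 6.45 and 22.4 CPM in Control and between 9.32 and 15.6 CPM in Tyrphostin libraries, with a change of -0.07 ± 0.23 (95% interval -0.52 to 0.39).

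Col4a1 and Col4a2 lie head to head, and the 22 bases shown here lie between the start of one and the start of the other, so both transcripts contain them, in opposite directions (chr8:11312805-11312826, RefSeq GRCm38.p6, plus strand). The capitals that mark motifs elsewhere are not used in it.
Col4a1 and Col4a2, shared bases: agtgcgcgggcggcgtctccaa
The ratio of the 2 chains differed between libraries beyond counting error. Col4a1 over Col4a2 was 3.41 ± 0.49 (SD, n = 11) for Control libraries, with a range from 2.41 to 3.92. It was 3.09 ± 0.65 (SD, n = 6) for Tyrphostin libraries. The lowest was Tyrphostin 2, with a ratio of 1.94, where Col4a1 made up 65.9% of the counts of both chains (95% Wilson interval 62.0 to 69.6%, counting error only). The other 5 Tyrphostin libraries lay between 2.88 and 3.77. Among Control libraries the share was 70.6% in Control 9 (66.4 to 74.5%) and 79.7% in Control 5 (77.7 to 81.5%), intervals that do not overlap. Reads from the shared bases cannot be told apart if counting ignored strand, which the sources used here do not state.

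Outside the alternative fits, the laminins did not pass the test in any comparison of treatment. The alpha 1 chain Lama1, a chain of early basement membranes, went the other way from most members: its Control libraries ran from 16.9 to 44.6 CPM (median 27.9) and its Tyrphostin libraries from 14.6 to 76.5 CPM (median 49.3). Of the 6 Tyrphostin libraries 4 were above every Control library and Tyrphostin 2 was below them all. The log2 fold change was 0.75 ± 0.27 (adjusted p = 0.0768), with 0.62 ± 0.36 in batch 1 and 0.91 ± 0.34 in batch 2 (adjusted p = 0.365 and 0.336). It passed at 0.91 with scaling by total counts (adjusted p = 0.0375), without Control 8 (0.0261) and without Tyrphostin 2 (0.00757). It was smallest among the fits without 1 library at 0.55, without Tyrphostin 3 (adjusted p = 0.257). Lama4, a chain of vessel and stromal basement membranes, ran from 9.78 to 25.6 CPM in Control and from 8.39 to 16.2 CPM in Tyrphostin libraries, with a change of -0.47 ± 0.23 (adjusted p = 0.209).

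The gamma 1 chain Lamc1, part of most laminin trimers, varied little among Control libraries (14.2 to 24.8 CPM, median 20.3). In batch 1 Tyrphostin 1, 2 and 3 were at 8.03, 10.4 and 13.9 CPM, each below all Control libraries of the batch (14.2 to 20.6 CPM). In batch 2 Tyrphostin 4, 5 and 6 were at 25.9, 21.8 and 16.6 CPM around Control levels of 20.3 to 24.8 CPM. The changes were -0.79 ± 0.26 in batch 1 (adjusted p = 0.0745) and -0.05 ± 0.22 in batch 2 (adjusted p = 0.965).

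Of the beta chains, Lamb2 was nearly level, with 202 ± 45.2 CPM over Control (SD, n = 11) and 204 ± 56.2 CPM over Tyrphostin libraries (SD, n = 6), a change of 0.03 ± 0.19 with a 95% interval from -0.34 to 0.39. Lamb1 varied more between libraries than between groups: from 42.3 to 263 CPM in Control (median 104) and from 58.5 to 249 CPM in Tyrphostin (median 105), a change of 0.06 ± 0.38. The ratio of Lamb2 to Lamb1 counts accordingly ranged from 0.639 (Control 7) to 4.85 (Tyrphostin 1), and in both groups some libraries had more Lamb1 and most had more Lamb2. Neither treatment nor batch separated that ratio. Its mean was 2.31 ± 1.37 over the Control libraries (SD, n = 11) and 2.31 ± 1.62 over the Tyrphostin libraries (SD, n = 6).

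Among the linkers nidogen 1 fell in batch 1, and the other two did not pass in any test of treatment. Nid1, which binds laminin gamma 1 and type IV collagen, ran from 18.8 to 55.0 CPM in the Control libraries of batch 1 (median 32.3), and Tyrphostin 1, 2 and 3 were at 11.0, 13.2 and 14.2 CPM. All 3 were below every Control library, of both batches. In batch 2 Control 7 to 11 held 23.6, 39.1, 20.4, 23.6 and 25.6 CPM and Tyrphostin 4, 5 and 6 held 22.2, 47.2 and 18.7 CPM, on both sides of the Control range. The change was -1.45 ± 0.32 in batch 1 (adjusted p = 0.00973; it passed in each of the 9 fits without 1 library), 0.13 ± 0.33 in batch 2 (adjusted p = 0.936) and -0.62 ± 0.31 over all libraries (adjusted p = 0.22). Without Tyrphostin 5 the last value was -0.96 and passed (adjusted p = 0.0205).

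Nid2, the second nidogen, ran from 3.59 to 13.9 CPM in Control and from 4.10 to 12.7 CPM in Tyrphostin libraries, a change of -0.03 ± 0.29. Its exons overlap those of Rtraf, so its counts are uncertain. Perlecan, the heparan sulfate proteoglycan encoded by Hspg2, ran from 35.6 to 125 CPM in Control (median 77.4) and from 27.8 to 111 CPM in Tyrphostin libraries (median 67.2), a change of -0.29 ± 0.19 (adjusted p = 0.381). Its levels followed the batch, as described below.

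Col15a1, the multiplexin related to Col18a1 and found between basement membranes and the fibres beneath, had the largest negative change of the 32 members tested in batch 1. Control libraries of batch 1 held from 8.90 to 37.8 CPM (median 18.1) and Tyrphostin 1, 2 and 3 held 4.73, 3.11 and 9.37 CPM, the last inside the Control range. The change was -1.91 ± 0.45 (adjusted p = 0.0158), a call that was lost without Tyrphostin 1 or Tyrphostin 2 (adjusted p up to 0.0892). In batch 2 Control 7 to 11 held 14.4, 44.9, 16.5, 49.8 and 12.8 CPM and Tyrphostin 4, 5 and 6 held 22.9, 70.1 and 6.34 CPM, which straddled the Control range. The batch 2 change was 0.22 ± 0.70 (adjusted p = 0.948).

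Of type VI collagen, which forms beaded filaments next to basement membranes, Col6a1 fell in batch 1. The 3 chains tested had negative log2 fold changes in batch 1 and positive ones in batch 2, where none passed, and the difference between batches passed for none. Col6a1 in the Control libraries of batch 1 lay between 33.2 and 52.6 CPM (median 44.8), and Tyrphostin 1, 2 and 3 were at 20.8, 17.2 and 22.05 CPM, all below them. In batch 2 Control 7 to 11 held 78.7, 95.8, 40.4, 57.1 and 36.9 CPM and Tyrphostin 4, 5 and 6 held 63.4, 192 and 116 CPM, the last pair above every Control library. The changes were -1.14 ± 0.23 in batch 1 (adjusted p = 0.00489, passing in each of the 9 fits without 1 library, and 0.0524 with Control libraries summed by set) and 1.00 ± 0.38 in batch 2 (adjusted p = 0.348). Without Tyrphostin 5 the batch 2 change was 0.53.

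Col6a2, its partner chain, was at 12.0 to 20.3 CPM in the Control libraries of batch 1 (median 16.0) and at 10.9, 6.99 and 8.58 CPM in Tyrphostin 1, 2 and 3. The 3 were again below all Control libraries of their batch. Batch 2 Control libraries held 18.9, 19.4, 9.12, 10.54 and 7.04 CPM and Tyrphostin 4, 5 and 6 held 15.9, 37.5 and 26.9 CPM, of which the last pair lay above all Control libraries. The changes were -0.84 ± 0.27 (adjusted p = 0.073) and 1.02 ± 0.37 (adjusted p = 0.307), and the latter was 0.696 without Tyrphostin 5. Col6a3, the third chain, had -0.80 ± 0.34 in batch 1 and 0.07 ± 0.46 in batch 2.

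Col6a1 and Col6a2 lie 85161 bases apart on the same strand of chromosome 10. Col6a1 was the member with the lowest interaction p and the only one whose window held the AP-1 letters, so that stretch is shown (chr10:76726116-76726145, GRCm38.p6, minus strand, upstream of the RefSeq start, AP-1 letters in capitals). In GENCODE M21, where the gene spans chr10:76708792-76726168, all 30 bases lie in an exon, downstream of the gene's first base.
Col6a1: tgctgatgctgTGACTCActcagctttgag
The ratio of Col6a1 to Col6a2 counts separated the batches and not the treatments. It lay between 1.91 and 3.36 in all 9 libraries of batch 1 and between 3.98 and 5.42 in all 8 libraries of batch 2. In batch 1 its mean was 2.81 ± 0.33 over Control (SD, n = 6) and 2.31 ± 0.36 over Tyrphostin libraries (SD, n = 3). In batch 2 the means were 4.84 ± 0.53 (SD, n = 5) and 4.48 ± 0.60 (SD, n = 3). The pattern was noticed in these values and is given as a description.

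**Figure D4:**
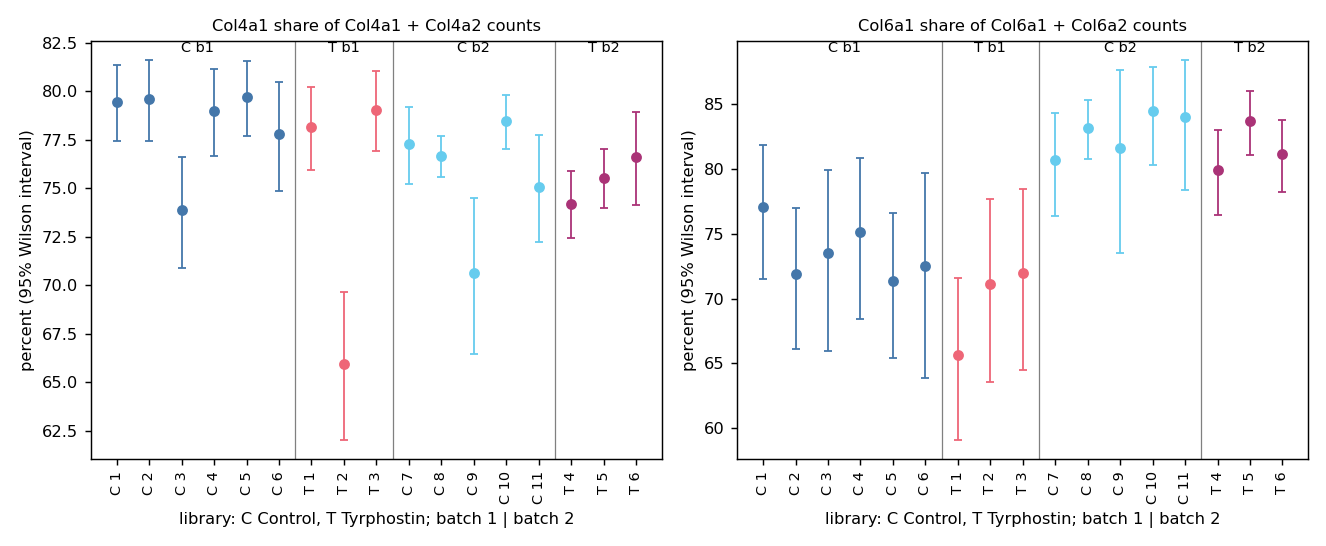
Share of Col4a1 in the counts of Col4a1 plus Col4a2 (left) and of Col6a1 in the counts of Col6a1 plus Col6a2 (right) for each Control (C) and Tyrphostin (T) library, in percent with 95% Wilson intervals, by batch (b1, b2). Tyrphostin 2 lies lowest on the left at 65.9%, and on the right every library of batch 2 lies above every library of batch 1.

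The major fibrillar collagens of connective tissue varied widely between libraries. Type I collagen is a trimer of 2 chains from Col1a1 and 1 from Col1a2. In batch 1 Col1a1 lay between 22.7 and 72.5 CPM in Control libraries (median 38.8) and at 16.1, 19.4 and 20.9 CPM in Tyrphostin 1, 2 and 3, all below. In batch 2 Control 7 to 11 held 87.7, 49.5, 19.1, 36.6 and 21.8 CPM and Tyrphostin 4, 5 and 6 held 53.4, 158 and 67.5 CPM, of which only Tyrphostin 5 was above all Control libraries. The changes were -1.20 ± 0.32 (adjusted p = 0.027) and 1.11 ± 0.49 (adjusted p = 0.443), and the latter was 0.48 without Tyrphostin 5. Omitting Control 1, Control 5 or any of Tyrphostin 1, 2 and 3 ended the call in batch 1 (adjusted p up to 0.104), as did scaling by total counts (0.0591).

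Col1a2 had Control libraries between 31.7 and 97.2 CPM in batch 1 (median 69.4) and Tyrphostin 1, 2 and 3 at 19.9, 27.2 and 33.4 CPM, the last just inside the Control range. It passed there at -1.28 ± 0.36 (adjusted p = 0.0442), a call that held without Control 2 or Control 3 and ended without any other of the 9 libraries (adjusted p up to 0.152), with Control libraries summed by set (0.092) and with scaling by total counts (0.0797). In batch 2 Control 7 to 11 held 153, 124, 42.1, 70.9 and 29.9 CPM and Tyrphostin 4, 5 and 6 held 84.8, 301 and 80.0 CPM, with Tyrphostin 5 far above the rest. The batch 2 change was 0.88 ± 0.57 (adjusted p = 0.665).

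Col3a1 ran from 95.04 to 1136 CPM in Control (median 276) and from 91.8 to 1772 CPM in Tyrphostin libraries (median 245). The highest libraries were Tyrphostin 5 (1772 CPM), Control 7 (1136 CPM) and Control 8 (1081 CPM), the 3 that led the theca and stroma list. Below them the orders differed: Control 10 held 892 CPM of Col3a1 with a list sum of 196 CPM. Tyrphostin 6 held 494 CPM with a list sum of 407 CPM. In batch 1 Tyrphostin 1, 2 and 3 held 91.8, 114 and 147 CPM and the Control libraries 95.04 to 477 CPM (median 238), so only Tyrphostin 1 lay below them all. Its change was -0.43 ± 0.48 over all libraries (adjusted p = 0.647), -1.19 ± 0.40 in batch 1 (adjusted p = 0.0959) and 0.27 ± 0.65 in batch 2 (adjusted p = 0.933). Col5a2, a chain of the type V collagen that is built into type I fibrils, ran from 9.56 to 27.6 CPM in Control and from 8.98 to 25.9 CPM in Tyrphostin libraries (-0.46 ± 0.23, adjusted p = 0.239). 

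The 3 tested collagens that sit on fibrils (FACIT) and the 2 tested transmembrane collagens all had negative changes over all libraries and none passed. Col12a1, a FACIT of tension-bearing tissue, ran from 4.06 to 11.9 CPM in Control (median 8.37) and from 5.66 to 14.2 CPM in Tyrphostin libraries (median 6.31), a change of -0.04 ± 0.21. Col13a1, a transmembrane collagen singled out after its values were seen, had the largest negative value of all members over all libraries (-1.22 ± 0.43, adjusted p = 0.0734). Its levels were low, with Control libraries from 1.07 to 7.09 CPM and Tyrphostin libraries from 0.4662 to 3.23 CPM. In batch 1 its 3 Tyrphostin libraries (0.717, 0.4662 and 1.56 CPM) were below all Control libraries (2.26 to 5.51 CPM). The 8 fibrillar members tested had a median change of -0.45, the 4 type IV chains -0.41 and the 4 laminin alpha chains -0.39.

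**Figure D5:**
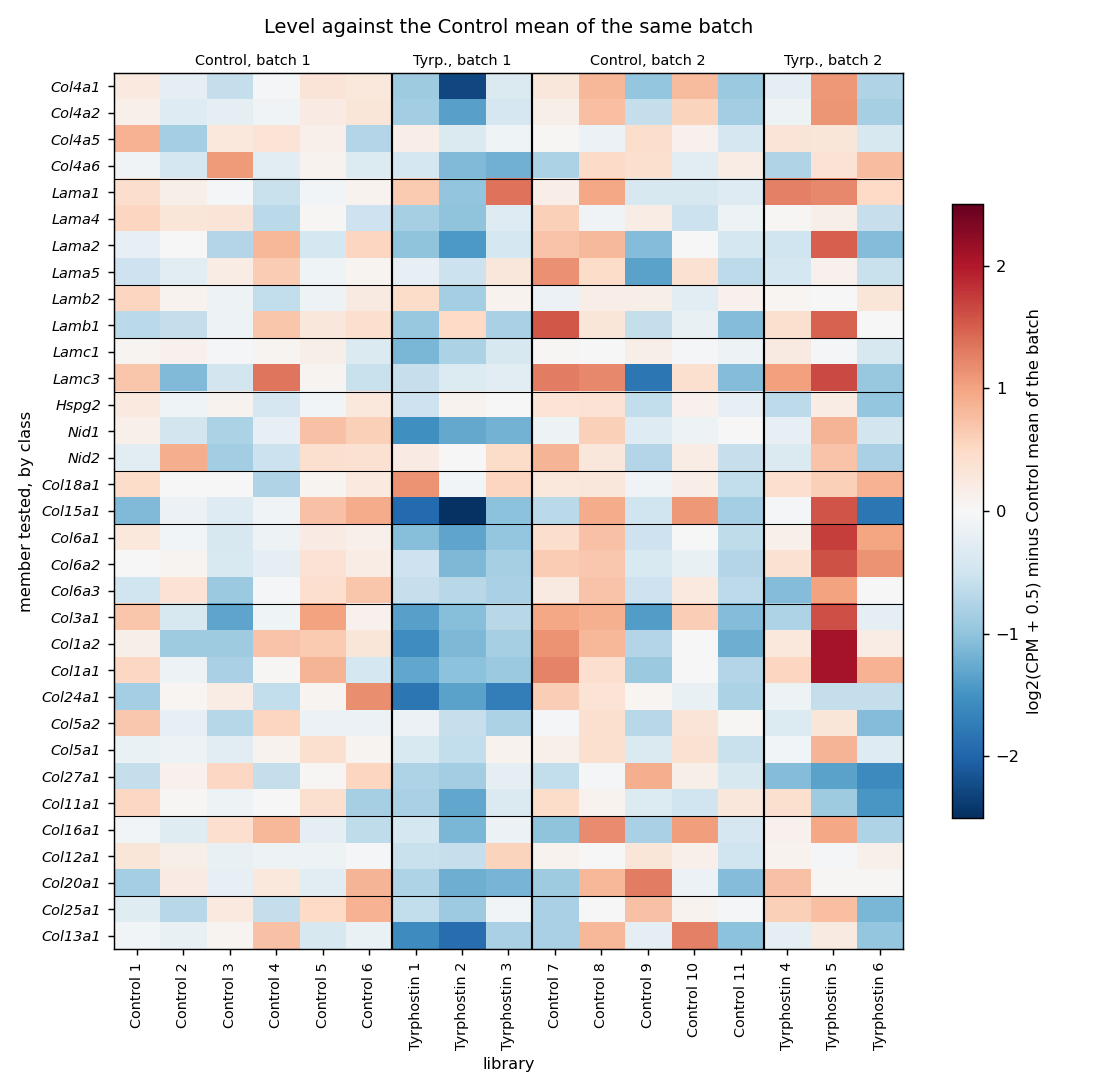
Log2(CPM + 0.5) of the 33 members tested in each library minus the mean of the Control libraries of the same batch, with the color scale limited to 2.5 in each direction, grouped by class (lines) and by group (thick lines). The Tyrphostin libraries of batch 1 are mostly blue (lower), and Tyrphostin 5 is red (higher) for most genes.

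The test of whether the treatment effect differed between batches gave 0 members past the adjusted threshold, beside 0% of the 9603 genes, with edgeR and with DESeq2. At an unadjusted p under 0.05 there were 8 of 33 members (24.2%), beside 3.56% of all genes. The difference (batch 2 effect minus batch 1 effect, log2) was positive for 29 of the 33, with a median of 0.88 beside -0.03 over all genes. This count, this median and the share at unadjusted p were not computed without Tyrphostin 5. For the theca and stroma list the same difference was positive for 4 of 6 genes, with a median of 0.997 and 0 calls, and its part in the members' values was not tested. The lowest p-values among members were those of Col6a1, at 2.14 ± 0.45 (p = 8.79e-05, adjusted p = 0.845), Col6a2, at 1.86 ± 0.46 (p = 0.000584, adjusted p = 1.00), and Col1a1, at 2.31 ± 0.65 (p = 0.00225, adjusted p = 1.00). Without Tyrphostin 5 these differences were 1.70, 1.57 and 1.72. When no filter on low counts was applied, 5 members passed (Col6a1, Col1a1, Col6a2, Col15a1 and Col1a2), so this result depends on which genes enter the fit. The share of all genes that passed in that fit is not given, so the 5 calls are not read as a result about the members.

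Among Control libraries alone, 3 of 25 members tested differed between batches, beside 14% of the 6680 genes tested (7.26% higher, 6.77% lower in batch 2). All 3 were lower in batch 2. Col24a1 was at 9.81 ± 3.56 CPM in batch 2 (SD, n = 5) and at 58.4 ± 31.9 CPM in batch 1 (SD, n = 6). Its log2 difference was -2.54 ± 0.36 (adjusted p = 0.000436), or 0.172 of the batch 1 level. Perlecan (Hspg2) was at 69.6, 69.8, 35.6, 58.8 and 47.4 CPM in Control 7 to 11 against 77.4 to 125 CPM in batch 1 (median 105). That was a difference of -0.87 ± 0.21 (adjusted p = 0.0109). Col12a1 was at 6.02 ± 1.23 CPM (SD, n = 5) against 9.61 ± 1.37 CPM (SD, n = 6), a difference of -0.67 ± 0.21 (adjusted p = 0.0484), a call that held without Control 9 and was lost without any other library (adjusted p up to 0.114), with scaling by total counts (0.149), with no filter on low counts (0.229) and with a mean count of at least 10 (0.0772). Col3a1 was higher by 1.45 ± 0.47 (adjusted p = 0.0536), and it passed with DESeq2 and with scaling by total counts. The latter moved the median of all genes to 0.21 and gave 1 call higher (Col3a1) and 2 lower (Col24a1 and Hspg2). In the same libraries 3 of the 5 theca and stroma genes tested were higher in batch 2, among them Dcn at 2.23 ± 0.45 (adjusted p = 0.00647). Their part in the member differences was not tested.

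Some genes that process, surround or bind these proteins had larger changes than any called member. Of 33 genes of collagen synthesis, secretion and crosslinking 26 were tested, and 2 fell and 2 rose beside the 10.6% of all genes. Lox, the oxidase that starts crosslinking of collagen and elastin, ran from 28.7 to 236 CPM in Control (median 69.8) and from 13.2 to 23.5 CPM in Tyrphostin libraries (median 16.5), with no overlap, a change of -2.40 ± 0.39 (adjusted p = 0.000425). It was -2.44 ± 0.36 in batch 1 and -2.34 ± 0.62 in batch 2, the latter with adjusted p = 0.142. Adamts3, a protease that trims procollagen ends, ran from 2.62 to 19.7 CPM in Control and from 1.68 to 7.46 CPM in Tyrphostin libraries, a change of -1.29 ± 0.27 (adjusted p = 0.00273). Colgalt2, which adds galactose to hydroxylysine, had a Control median of 10.16 CPM and a Tyrphostin median of 24.9 CPM, a change of 1.42 ± 0.26 (adjusted p = 0.00067). Sec24d, a coat protein that exports procollagen from the endoplasmic reticulum, ran from 61.6 to 95.8 CPM in Control and from 84.8 to 133 CPM in Tyrphostin libraries, a change of 0.48 ± 0.14 (adjusted p = 0.0267). It passed within neither batch (adjusted p = 0.303 and 0.282, edgeR). Colgalt2 and Adamts3 passed in batch 1 and not in batch 2 (adjusted p = 0.113 and 0.366, edgeR). The Control mean of Adamts3 was 14.4 CPM in batch 1 and 5.79 CPM in batch 2. The other 22 did not pass, among them the collagen chaperone Serpinh1 (-0.45 ± 0.18, adjusted p = 0.126) and the prolyl hydroxylase subunit P4hb (-0.03 ± 0.20, adjusted p = 0.953).

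Of 19 other basement membrane proteins 9 were tested, and 1 rose and 1 fell. Fras1, which anchors epithelial basement membranes, ran from 4.72 to 25.4 CPM in Control and from 1.89 to 8.78 CPM in Tyrphostin libraries, a change of -1.53 ± 0.24 (adjusted p = 0.000134). Its Control levels were lower in batch 2 than in batch 1 (-1.37 ± 0.27, adjusted p = 0.00356). Smoc2, a calcium-binding matrix protein related to SPARC, ran from 29.7 to 119 CPM in Control and from 89.0 to 204 CPM in Tyrphostin libraries, a change of 0.93 ± 0.19 (adjusted p = 0.00227). Neither Fras1 nor Smoc2 passed within batch 2.

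Of 17 receptors for laminin and collagen 12 were tested, and 2 fell and 0 rose. Sdc1 encodes syndecan-1, a cell surface heparan sulfate proteoglycan that binds both. It ran from 1249 to 3253 CPM in Control (median 1602) and from 97.2 to 251 CPM in Tyrphostin libraries (median 181). Every Tyrphostin library was far below every Control library. The change was -3.34 ± 0.28 (adjusted p = 3.48e-08), with -3.50 ± 0.37 in batch 1 (adjusted p = 1.62e-05) and -3.17 ± 0.39 in batch 2 (adjusted p = 0.00493). Itga2, the alpha 2 integrin chain of a collagen receptor, ran from 771 to 1495 CPM in Control and from 242 to 1047 CPM in Tyrphostin libraries, a change of -0.996 ± 0.24 (adjusted p = 0.00866), with only Tyrphostin 1 inside the Control range. Itga2 passed within neither batch. The common beta chain Itgb1 (0.07 ± 0.23, adjusted p = 0.897), the laminin receptor chain Itga6 (0.01 ± 0.29, adjusted p = 0.987) and dystroglycan (Dag1, -0.18 ± 0.28, adjusted p = 0.76) did not pass.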

How the data were processed

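RNA was taken up on SPRI beads and sequenced by the Smart-Seq2 method, which copies whole transcripts and carries no molecular identifiers, per the labels' protocols. The deposited table holds raw whole-number counts, 1 row for each gene symbol. Reads were processed with STAR and HTSeq on GRCm38, per the submitters' processing notes. Tool versions, annotation and strand setting are not given in the sources used here. Genes with shared or overlapping exons are therefore uncertain.

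The members and gene lists were chosen with earlier results of these data known. Fits used edgeR 4.0.16 in R 4.3.3 (filterByExpr, TMM scaling, robust quasi-likelihood F test) on all genes, with Benjamini-Hochberg adjustment over all genes tested and a threshold of 0.05. SE is the log2 fold change divided by the square root of F. Intervals of fold changes, labelled 95%, are 1.96 SE to each side and take no account of the limited degrees of freedom of the test. They are therefore somewhat too narrow. The interval of Nid1 over all libraries (-1.22 to -0.025) excludes 0 with an unadjusted p of 0.0538 (edgeR). DESeq2 1.42.0, 2 other scalings, other count filters, no batch term, a replicate block, Control libraries summed by set and leaving out each library were alternatives. The test was checked on simulated counts. Transcript lengths and positions are from GENCODE M21 (APPRIS principal transcript). Of 31 pairs of libraries of one group and batch, none agreed within sampling noise (chi-square over its degrees of freedom 11.8 to 84.1). Counting intervals cover counting error only. Members named individually are those past the threshold with batch as a term or within a batch, the 3 of lowest p in the interaction and between Control batches, the ovarian basement membrane core (Col4a1, Col4a2, Lama1, Lamb1, Lamc1, Nid1, Nid2, Hspg2) and 5 more of highest CPM per kb. Of the pathway lists, genes past the threshold were named first.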

Additional observations from a re-analysis of the deposited data

Results flagged for a closer look

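Among 22 members described by name, 66 sets of library values (Control batch 1, Control batch 2 and all Tyrphostin libraries) were examined with Dixon's criterion on CPM for 1 library that lies far off. A set was marked in 10 cases, where chance would mark about 3.3 if the sets were independent and normally distributed. The same libraries enter the sets of every gene, and the Tyrphostin sets pool both batches. No excess over chance is therefore read from the 10. On log2 values 1 set was marked. Tyrphostin 5 was marked 7 times. It held 158 CPM of Col1a1 (the other Tyrphostin libraries 16.1 to 67.5), 301 CPM of Col1a2 (19.9 to 84.8), 1770 CPM of Col3a1 (91.8 to 494), 619 CPM of Col4a1 (61.1 to 247), 201 CPM of Col4a2 (31.5 to 85.9), 70.1 CPM of Col15a1 (3.11 to 22.9) and 47.2 CPM of Nid1 (11 to 22.2). In this library the theca and stroma list summed to 818 CPM, the immune list to 57.9 CPM and the granulosa list to 78228 CPM, the lowest of all. Whether these markers account for the member levels was not tested.

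Tyrphostin 3 held 14.2 CPM of Col12a1, where the other Tyrphostin libraries held 5.66 to 6.53. Control 6, the library with the fewest counts, held 118 CPM of Col24a1 and the rest of its group in batch 1 held 28.8 to 59.8. Control 8 held 39.1 CPM of Nid1 and the rest of its group in batch 2 held 20.4 to 25.6.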

How the results depend on the processing

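The count of members called over all libraries was 1 without the batch term and ran from 1 to 5 when 1 library was left out. In batch 1 it was 4 with total-count scaling, 12 with DESeq2 and 4 with Control libraries summed by set, and ran from 3 to 8 when 1 library was left out. In batch 2 it was 1 with DESeq2, and in the interaction it was 5 with no filter on low counts. The cause of these shifts was not tested. The shares of all genes called in these alternative fits are not given beside the counts. Some uncalled log2 fold changes over all libraries changed sign. Total-count scaling gave 0.084 for Col1a2, 0.12 for Col12a1, 0.13 for Nid2 and 0.092 for Col4a5, no filter gave 0.0088 for Col12a1 and 0.017 for Nid2, no batch term gave 0.29 for Col1a2 and 0.054 for Col3a1, and summed Control sets gave 0.011 for Nid2. Leaving out 1 library gave ranges of -0.33 to 0.24 for Col6a1, -0.38 to 0.30 for Col1a1, -0.69 to 0.14 for Col1a2, -0.10 to 0.35 for Col6a2, -0.24 to 0.067 for Col12a1, -0.23 to 0.33 for Lamb1, -0.091 to 0.17 for Lamb2, -0.22 to 0.12 for Nid2 and -0.14 to 0.046 for Col4a5. With Tyrphostin 5 left out, Col6a1, Col1a1, Col6a2 and Lamb1 were negative.

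Deviations of same-numbered Control and Tyrphostin libraries from their group and batch means correlated at r from 0.031 to 0.323 over numbers 1 to 6, and 2 of 6 Tyrphostin libraries correlated best with the Control library of their own number, so the numbers were not taken to pair the libraries. Numbers 4 to 6 stand in batch 1 for Control and in batch 2 for Tyrphostin, so with the replicate block and the batch term the treatment effect comes from numbers 1 to 3 of batch 1 alone. In that fit the count over all libraries was 3 (Col6a1, Lama4 and Col24a1, all lower) and that in batch 1 was 5. The block gave -1.08 for Col6a1, -0.98 for Col1a1, -0.75 for Col6a2, -0.27 for Lamb2 and 0.24 for Nid2. Lama1 was at 0.17 (adjusted p = 0.878). The calls of Col18a1 (0.38, adjusted p = 0.403) and Col27a1 (-0.71, 0.415) over all libraries ended, as did in batch 1 those of Col1a1 (-0.97, 0.0554), Col1a2 (-0.62, 0.294) and Col4a2 (-0.74, 0.0553). No block could be fitted in batch 2, the interaction or between Control batches. The 25 members not tested had too few counts for the fit, and none exceeded 18 counts in a library. Whether depth or low expression was the reason was not tested.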
